A study of Mus musculus with 14 samples.

Results

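Matn1, Matn2, Matn3, Matn4, Acan and Hapln1 code for the 4 matrilins, for aggrecan and for the link protein that holds aggrecan on hyaluronan. The 6 genes were chosen by name from the 35976 gene symbols counted, and each had a row at both ages. RNA was sequenced from GFP-positive supporting cells (SCs) sorted from cochleae of Lfng-EGFP mice after 24 hours in culture. Explants at P0 received 2 μM compound E (CompE, 4 libraries) or the same volume of DMSO (4 libraries), and explants at P6 received CompE (3 libraries) or DMSO (3 libraries). Compound E blocks γ-secretase, the protease that frees the intracellular domain of Notch, and DMSO is its solvent. All groups carry the same EGFP transgene, which reports Lfng, itself a Notch target, so the sort follows a gene of the pathway under test. Several cochleae were pooled for a sample, the P0 explants were taken at P0 to P1, and nothing in the labels ties a library to 1 animal, so p-values measure only the spread between these libraries. Libraries held 19415066 to 44430063 counts on genes, which makes 1 count worth 0.0225 to 0.0515 RPM, counts scaled to a library total of 1000000. CompE and DMSO libraries of the same age and replicate number share a batch in the labels, replicates 3 and 4 at P0 share the same batch, and no batch holds both ages, so age and batch cannot be told apart. Marker genes of SCs summed to 4696 to 10212 RPM in the 14 libraries. The replicate 3 pair at P6 stood apart, with the lowest SC marker sums at 4696 RPM with CompE and 5529 RPM with DMSO and the highest sums of 11 otic mesenchyme markers, 3471 and 4172 RPM against 930 to 2488 RPM in the other P6 libraries.

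Matrilins are secreted proteins with von Willebrand factor A domains that form oligomers and link collagen fibrils to proteoglycans. Matn1 and Matn3 are best known from cartilage, Matn2 and Matn4 from many connective tissues and epithelia. In the cochlea the authors used Matn4 as a marker of inner phalangeal and border cells. Aggrecan, a large chondroitin sulfate proteoglycan, binds hyaluronan through a globular domain, and Hapln1 stabilizes that bond, which gives cartilage its swelling pressure and is also part of the perineuronal nets of the brain. In the cochlea, SCs secrete much of the tectorial membrane and lie on a basement membrane, next to mesenchyme and a cartilaginous otic capsule that carry their own matrix genes.

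Matn1 and Matn4 carried most matrilin reads at P0 and differed with treatment in opposite directions there, so the 250 bases upstream of their starts are shown (RefSeq, GRCm38.p6, gene strand). Capitals mark 3 motifs read on either strand, namely TGGGAA (the core of the site of RBPJ, the DNA-binding partner of Notch), CAGNTG (an E-box form bound by basic helix-loop-helix activators) and CACGNG (a site form bound by the Hes and Hey repressors). The Matn1 stretch lies at chr4:130944135-130944384 on the plus strand. Matn4 has 2 RefSeq starts on the minus strand, one with the stretch chr2:164405161-164405410 and the other, inside an intron of Matn4, with chr2:164404819-164405068. A transcript of the neighbor Rbpjl with a retained intron overlaps both Matn4 stretches on the other strand.
Matn1: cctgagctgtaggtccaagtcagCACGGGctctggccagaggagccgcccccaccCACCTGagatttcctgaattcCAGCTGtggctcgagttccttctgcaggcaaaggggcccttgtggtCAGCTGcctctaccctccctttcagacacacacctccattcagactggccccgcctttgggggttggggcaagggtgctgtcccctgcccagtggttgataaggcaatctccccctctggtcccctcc
Matn4 start 1: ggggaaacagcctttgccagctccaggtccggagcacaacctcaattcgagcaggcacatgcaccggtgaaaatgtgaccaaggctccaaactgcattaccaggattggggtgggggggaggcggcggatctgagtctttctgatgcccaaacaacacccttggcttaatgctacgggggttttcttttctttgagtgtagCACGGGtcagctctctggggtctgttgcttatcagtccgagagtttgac
Matn4 start 2: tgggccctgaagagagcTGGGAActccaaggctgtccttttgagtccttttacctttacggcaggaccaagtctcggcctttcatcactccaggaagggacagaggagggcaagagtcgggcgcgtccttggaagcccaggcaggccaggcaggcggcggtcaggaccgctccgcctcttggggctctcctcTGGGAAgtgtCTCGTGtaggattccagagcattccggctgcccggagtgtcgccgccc
The Matn1 stretch held 3 CAGNTG matches and 1 CACGNG match and no TGGGAA. The stretch of Matn4 start 2 held 2 TGGGAA matches and 1 CACGNG match, and that of Matn4 start 1 held 1 CACGNG match alone. Of 32851 RefSeq promoters cut to the same length, 44.8% held CAGNTG, 23.5% held CACGNG and 21.6% held TGGGAA. At least 3 CAGNTG matches were present in 3.25% of them and at least 2 TGGGAA matches in 2.77%. These cut-offs equal the numbers found in the Matn1 stretch and in that of Matn4 start 2, so the shares are not a test. Among the other members with an entry, the Acan stretch held 1 CAGNTG and 2 CACGNG matches, the Matn3 stretch 1 CACGNG match, and the Hapln1 stretch none of the 3 motifs. Binding of these factors was not measured here, and no entry for Matn2 was used.

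Matn1 rose with CompE at P0. Matn1 lies at chr4:130944385-130955475 (GRCm38, plus strand, protein coding). The CompE libraries had 962, 572, 1642 and 1599 counts for replicates 1 to 4, and the DMSO libraries had 174, 131, 151 and 300. In RPM these were 21.7, 29.5, 47.9 and 50.5 with CompE and 6.58, 3.28, 4.79 and 9.86 with DMSO. Every CompE library lay above every DMSO library, and the lowest CompE value was over the highest DMSO value by more than the whole DMSO range. The mean was 37.4 ± 14.0 RPM (SD, n = 4) with CompE and 6.13 ± 2.83 RPM (SD, n = 4) with DMSO. On the log2 scale CompE exceeded DMSO by 2.59 (SE, the standard error, 0.378, adjusted p by edgeR = 0.00478), which is 6.02-fold. Matn1 was the 1 member called of the 3 that could be tested at P0. A gene was called when its adjusted p was no higher than 0.01 and it changed 2-fold or more, which 195 of 15937 genes did (1.22%, with 0.238% higher and 0.985% lower). With the replicate number as a block the value for Matn1 was also 2.59 (adjusted p by edgeR = 0.000905), and 2.2% of genes were called. With batch as the block, replicates 3 and 4 together, it was 2.56 (adjusted p by edgeR = 0.000809). An exact two-sided permutation test of mean RPM gave p = 0.0286, the smallest that 4 against 4 libraries allow. This test, here and for the other members, took no account of replicate number or batch. The call was kept without CompE replicate 1 (adjusted p by edgeR = 0.00388), without DMSO replicate 4 (0.00568) and without the pair of replicate 1 (0.00603), and was lost without any other single library. Without CompE replicate 2, 3 or 4 the adjusted p was 0.0120, 0.0189 or 0.0198, and without DMSO replicate 1, 2 or 3 it was 0.0123, 0.0141 or 0.0178, each with a log2 fold change of 2.39 to 2.68. It was also lost without both libraries of replicate 2, 3 or 4 (adjusted p = 0.0276, 0.0533 and 0.0256) and when all 14 libraries were fitted together (2.58, adjusted p = 0.0253).

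**Figure D1:**
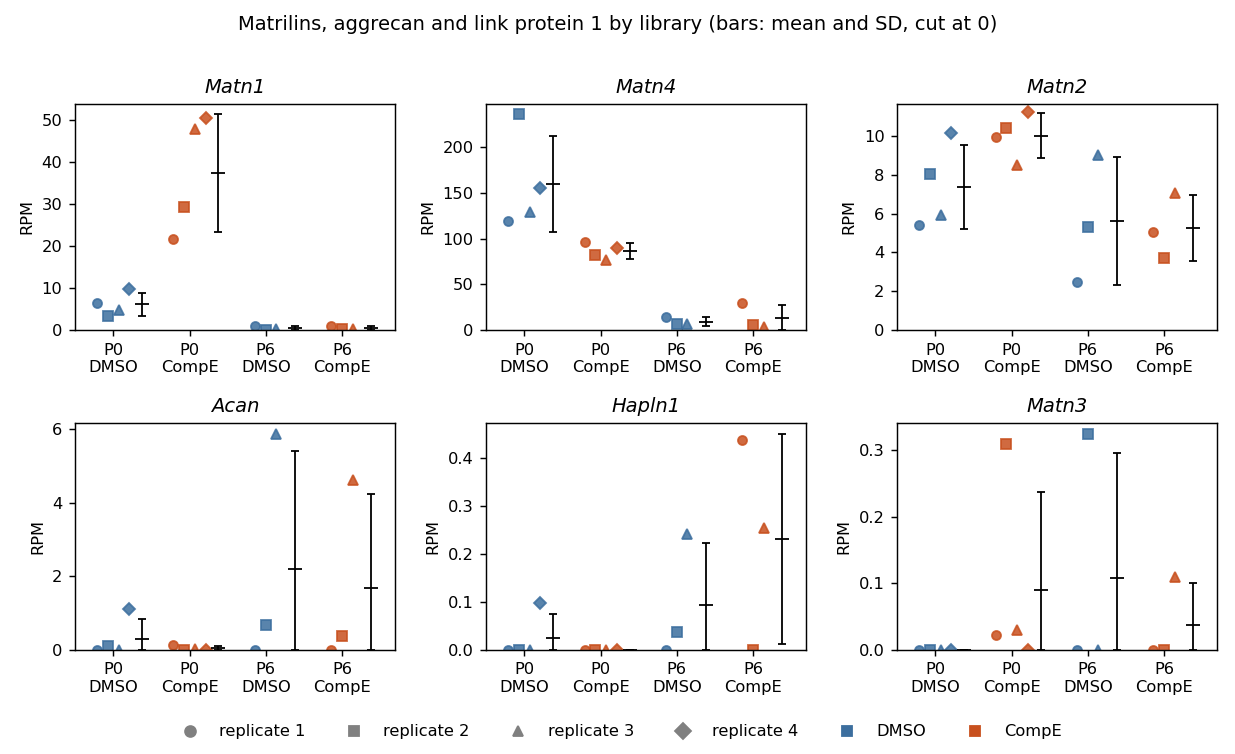
RPM of the 6 genes (vertical axes, 1 panel per gene) in each library, by group on the horizontal axis. Symbols give the replicate number, blue DMSO and orange CompE, and black bars the mean and SD with the lower end cut at 0. At P0 the 4 Matn1 points with CompE (21.7 to 50.5 RPM) lie above the DMSO points (3.28 to 9.86 RPM), while the Matn4 points with CompE (76.9 to 96.5 RPM) lie below those with DMSO (119 to 236 RPM).

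Matn4 had lower values with CompE at P0, without a call. Matn4 lies at chr2:164389393-164405160 (minus strand, protein coding). Its CompE libraries had 96.5, 82.0, 76.9 and 89.9 RPM and its DMSO libraries 119, 236, 129 and 155 RPM, in the order of replicates. The groups did not overlap, and the DMSO libraries were spread over a far wider range, led by replicate 2. The share of all genes whose P0 groups did not overlap was not counted, so this separation sets Matn4 apart from no other gene. Of all genes tested at P0, 13.4% had an unadjusted p under 0.05 by edgeR. The means were 86.3 ± 8.63 RPM (SD, n = 4) and 160 ± 52.7 RPM (SD, n = 4). The log2 fold change was -0.94 (SE 0.215, adjusted p by edgeR = 0.0402), short of both thresholds for a call. Over the alternatives tried its adjusted p ran from 0.00184 to 0.710. The exact permutation test of mean RPM gave p = 0.0286, again the smallest possible. Rbpjl overlaps Matn4 on the opposite strand over 149 exon bases, or 2.88% of the Matn4 exons, and had 42 to 229 counts at P0 against 1593 to 9414 for Matn4. Whether the counting used strand is not given in the sources used here.

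Matn2, at chr15:34306677-34436273 (plus strand, protein coding), showed no difference that passed a test at P0. It had 9.93, 10.4, 8.48 and 11.2 RPM with CompE and 5.41, 8.01, 5.94 and 10.1 RPM with DMSO. The groups overlapped through DMSO replicate 4, although every CompE library was above its DMSO partner. The means were 10.0 ± 1.14 and 7.37 ± 2.15 RPM (SD, n = 4 each), and the log2 fold change was 0.39 (SE 0.236, adjusted p by edgeR = 0.559). The exact permutation test gave p = 0.0857. A gene on the opposite strand, 9430069I07Rik, shares 70 exon bases with Matn2 and had 0 counts in every library.

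Per exon length, Matn4 was above Matn1 in all 4 DMSO libraries at P0 and in 2 of the 4 CompE libraries, replicates 1 and 2. With DMSO, Matn4 had 30.9 ± 10.2 RPM per kilobase of exon (RPKM), Matn1 3.06 ± 1.41 and Matn2 1.18 ± 0.343 (SD, n = 4). Matn4 stood clear of the others, while the lowest Matn1 library (1.64 RPKM) was only just above the highest Matn2 library (1.62 RPKM). With CompE, Matn1 had 18.7 ± 7.02 RPKM and Matn4 16.7 ± 1.67 RPKM, and their ranges of 10.8 to 25.2 and 14.9 to 18.7 overlapped. Matn2 stayed below both at 1.60 ± 0.183 RPKM. Exon lengths were the union of GENCODE exons, so an isoform used in part would shift these levels.

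The shift between Matn1 and Matn4 was present in every P0 pair. For each 100 Matn4 counts there were 5.52, 1.39, 3.71 and 6.37 Matn1 counts in the DMSO libraries and 22.4, 35.9, 62.2 and 56.2 in the CompE libraries at P0. This ratio needs no library total, and its P0 groups did not overlap. At P6 it was 6.52, 1.12 and 3.00 with DMSO and 3.32, 4.12 and 10.1 with CompE, where the groups overlapped and each value rested on 2 to 25 Matn1 counts. The Matn1 numerator and the Matn4 denominator moved with treatment, so the ratio adds no separate test.

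**Figure D2:**
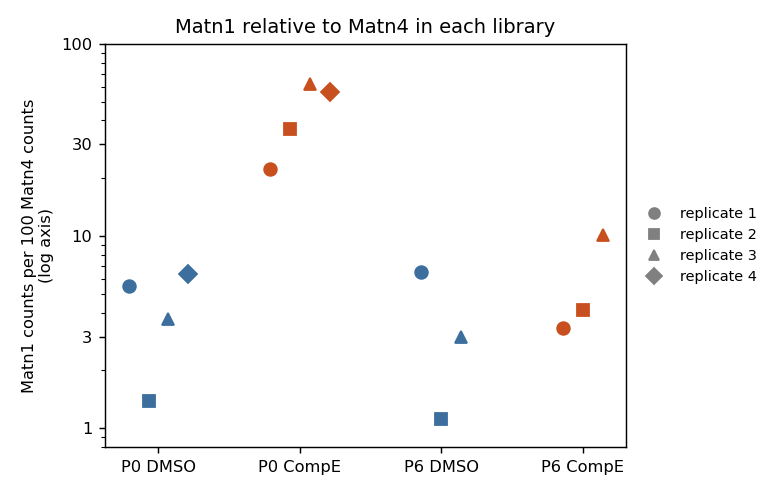
Matn1 counts per 100 Matn4 counts in each library (vertical log axis), by group on the horizontal axis, with symbols for the replicate number. The 4 P0 CompE libraries lie at 22.4 to 62.2 and all other libraries at 1.12 to 10.1.

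At P6 no member was called, and both leading matrilins were much lower than at P0. Matn1 had 25, 7 and 9 counts with CompE and 23, 2 and 8 with DMSO, or 0.522 ± 0.411 and 0.409 ± 0.481 RPM (SD, n = 3), and did not pass the filter on low counts. Its replicate 1 libraries, 1 of each treatment, were the highest and nearly equal, at 0.994 and 0.959 RPM. Matn4 had 29.95, 5.92 and 3.24 RPM with CompE and 14.7, 6.45 and 6.48 RPM with DMSO. The groups overlapped, and the log2 fold change of 0.51 (SE 0.808, adjusted p by edgeR = 1.00) turned to -0.97 without CompE replicate 1 and to -0.0022 with the replicate number as a block. Matn2 had 5.05, 3.69 and 7.03 RPM with CompE and 2.46, 5.33 and 9.03 RPM with DMSO. Its log2 fold change was -0.08 (SE 0.516, adjusted p by edgeR = 1.00). Of the 15322 genes tested at P6, edgeR called 0 (0%), 289 had an unadjusted p under 0.05, and DESeq2 called 13. None of the members tested at P6 was among the 289 or the 13. Biological variation between libraries was larger at P6, with an edgeR coefficient of 46.7% against 27.2% at P0, and 3 against 3 libraries cannot give an exact p below 0.10.

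Within pairs, Matn1 was the member with 1 direction throughout. The log2 ratio of CompE to DMSO, computed on RPM + 0.1, was 1.70, 3.13, 3.29 and 2.34 in the P0 pairs and 0.05, 1.00 and 0.54 in the P6 pairs. CompE was the higher library in 7 of 7 pairs. The mean over the pairs was 1.72 ± 1.26 (SD, n = 7), and an exact test that swaps treatments within pairs gave p = 0.0156, the smallest that 7 pairs allow. With the pairs of 1 batch swapped together the exact test gave p = 0.0312, the smallest that 6 batches allow. The mean ratio was 2.62 ± 0.737 over the P0 pairs (SD, n = 4) and 0.53 ± 0.476 over the P6 pairs (SD, n = 3). Both swap tests pool the ages, so they do not show a response at P6 alone. At P6 the Matn1 ratios rest on 2 to 25 counts per library. Matn4 had ratios of -0.31, -1.52, -0.75 and -0.78 at P0, lower in 4 of 4 pairs, and of 1.02, -0.12 and -0.98 at P6, where the pairs disagreed in sign. Over all pairs its mean was -0.49 ± 0.807 (SD, n = 7, exact swap p = 0.156). Matn2 had ratios of 0.86, 0.37, 0.51 and 0.15 at P0, higher in 4 of 4 pairs, and of 1.01, -0.52 and -0.36 at P6. Its mean was 0.29 ± 0.576 (SD, n = 7, exact swap p = 0.219). Over the 6 members, the 6 swap tests gave 1 unadjusted p under 0.05, that of Matn1. The share of all genes with 1 direction in 4 of 4 P0 pairs was not counted.

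**Figure D3:**
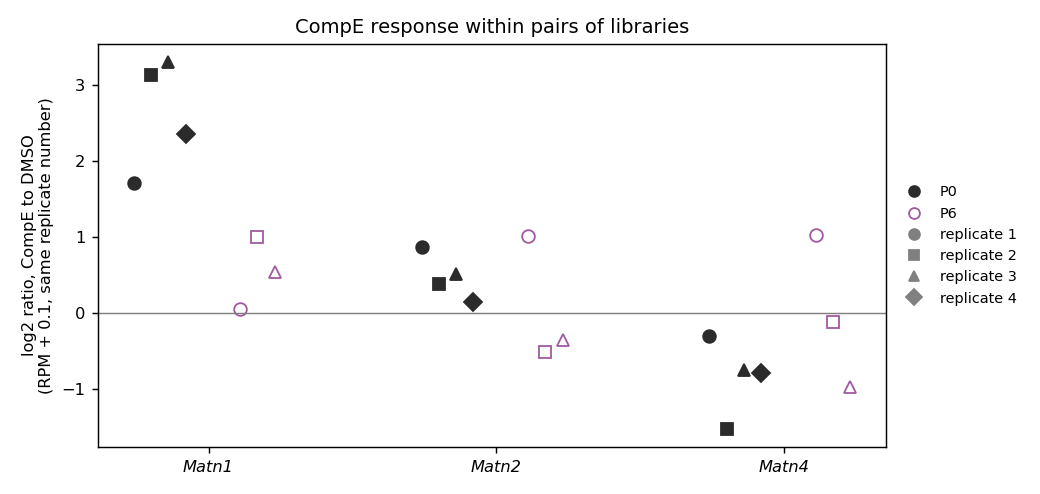
Log2 ratio of CompE to DMSO (vertical axis, RPM + 0.1) for Matn1, Matn2 and Matn4 in each pair of libraries of the same age and replicate number. Filled symbols are P0 and open symbols P6. The black P0 points of Matn1 lie at 1.70 to 3.29 and those of Matn4 at -1.52 to -0.31, while the P6 points of Matn2 and Matn4 fall on both sides of 0.

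The response was not shown to differ between ages. For Matn1 the CompE response at P6 minus that at P0 was -2.14 on the log2 scale (SE 0.949, edgeR unadjusted p = 0.0408, adjusted p = 1.00). With the replicate block it was -2.05 (adjusted p by edgeR = 0.222). For Matn4 the difference was 1.47 (SE 0.787, adjusted p = 1.00) and for Matn2 it was -0.47 (SE 0.526, adjusted p = 1.00). In this comparison edgeR called 0 of 17090 genes (0%), or 0.0936% with the replicate block. An unadjusted p under 0.05 was found for 811 genes, Matn1 among them, and DESeq2 called 33 genes, none of them a member.

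Matn1 and Matn4 fell from P0 to P6 in DMSO. Matn4 went from 160 ± 52.7 RPM (SD, n = 4) to 9.22 ± 4.77 RPM (SD, n = 3), and the highest P6 library, at 14.7 RPM, was far below the lowest P0 library. Its log2 fold change was -4.07 (SE 0.648, adjusted p by edgeR = 0.000710, exact permutation p = 0.0286, the smallest possible). Matn1 went from 6.13 to 0.409 RPM, a log2 fold change of -3.91 (SE 0.714, adjusted p by edgeR = 0.00177), with no overlap between ages and an exact permutation p of 0.0571. Matn2 went from 7.37 to 5.61 RPM with overlapping groups (log2 fold change -0.33, SE 0.374, adjusted p = 0.557). Thus 2 of the 4 members tested were called, against 1216 of 17090 genes or 7.12%, of which 577 fell (3.38%) and 639 rose (3.74%). Per exon length, the P6 DMSO order was Matn4 at 1.78 ± 0.922 RPKM, Matn2 at 0.895 ± 0.526, Acan at 0.293 ± 0.430 and Matn1 at 0.204 ± 0.240 (SD, n = 3), and each of these overlapped its neighbor in the order. In bulk libraries, fewer cells of a type and less RNA per cell cannot be told apart. Between these DMSO groups the SC markers Gjb6 and Gjb2, connexins of the SC network, rose (log2 fold changes 1.83 and 1.12), while Sox2, a transcription factor of prosensory cells and SCs, and Lgr5, a Wnt co-receptor of progenitor-like SCs, fell (-1.37 and -1.84). Of the 8 SC markers tested, 2 were called higher and 3 lower, while 3 had higher and 5 lower values. Their part in the matrilin levels was not tested.

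Acan, at chr7:79053483-79115099 (plus strand, protein coding), had its most counts in the P6 pair that stood apart, and few or none in most other libraries. At P0 it had 6, 0, 1 and 0 counts with CompE and 0, 4, 0 and 34 with DMSO, and it did not pass the filter there. At P6 it had 0, 11 and 127 counts with CompE and 0, 19 and 242 with DMSO, or 0, 0.383 and 4.63 RPM against 0, 0.684 and 5.87 RPM. Both treatments thus had their highest value in replicate 3 and no count in replicate 1. The log2 fold change was -0.38 at P6 (SE 1.99, adjusted p by edgeR = 1.00), and it turned to 2.18 without DMSO replicate 3. From P0 to P6 in DMSO it was 2.87 (SE 1.80, adjusted p = 0.275), and 0.33 was the lowest value when single libraries were left out. The P6 pair with the most Acan also had the highest otic mesenchyme marker sums, of which Lum and Dcn made up 90.3% and 91.0%. The other 9 markers summed to 335 and 374 RPM in that pair and to 50.3 to 79.3 RPM in the other P6 libraries, where their order was not that of Acan. P0 DMSO replicate 4, with 34 Acan counts, had 336 RPM of these 9 markers, against 44.8 to 197 RPM in the other P0 libraries. The replicate 3 pair also had the highest sums of immune markers, 81.7 and 33.6 RPM against 4.03 to 13.2 RPM, and of hair cell (HC) markers, 1099 and 974 RPM against 374 to 553 RPM. Its sums were the highest at P6 for chondrocyte markers too, 18.6 and 13.8 RPM against 5.73 to 12.1 RPM. The same held for neuron markers (83.2 and 102 RPM against 26.5 to 42.2 RPM) and glia markers (493 and 478 RPM against 373 to 420 RPM). The part of these cells in the Acan counts was not tested.

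**Figure D4:**
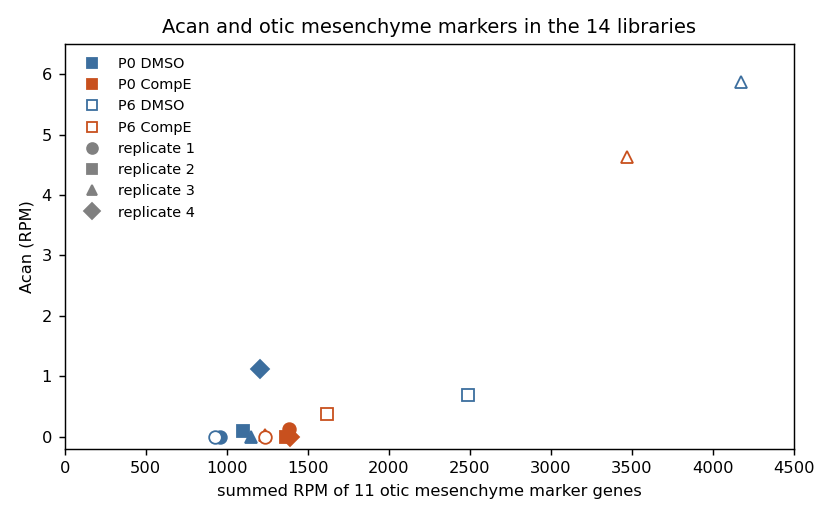
Acan RPM (vertical axis) against the summed RPM of 11 otic mesenchyme marker genes (horizontal axis) in the 14 libraries. Colors give treatment, filled symbols P0, open symbols P6 and shapes the replicate number. The 2 P6 replicate 3 libraries lie apart at 3471 and 4172 RPM of markers and 4.63 and 5.87 RPM of Acan.

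Hapln1 and Matn3 were too low for a test at either age. Hapln1, at chr13:89539796-89611652 (plus strand), had 0 counts in all P0 libraries but DMSO replicate 4, which had 3 counts. At P6 it had 11, 0 and 7 counts with CompE and 0, 1 and 10 with DMSO. Matn3, at chr12:8947929-8972028 (plus strand), had 1, 6, 1 and 0 counts with CompE and 0 counts in the 4 DMSO libraries at P0, and 0, 0, 3 and 0, 9, 0 counts at P6. For a library with 0 counts, 3 counts of its total allow up to 0.0675 to 0.155 RPM over the libraries, for counting error only. A response of these genes was not detectable at this depth.

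Summed levels of SC and otic mesenchyme markers differed between treatments at P0 without overlap. The separation was lost without Jag1 for SC markers, and without Lum and Dcn for mesenchyme markers. Fabp7 was the 1 marker gene called by edgeR without a block. The part of the marker genes in the matrilin changes was not tested. SC markers summed to 6784 to 7166 RPM with CompE and 7287 to 10212 RPM with DMSO, with no overlap, and 0 of the 8 were called by edgeR (2 at an unadjusted p under 0.05). Of the 8 SC markers, 6 had lower and 2 had higher values with CompE. Jag1, a Notch ligand, was called lower by DESeq2 and with the replicate block. Jag1 alone averaged 879 RPM with CompE and 2197 RPM with DMSO. HC markers summed to 1071 to 1654 RPM with CompE and 558 to 1152 RPM with DMSO. Of the 8 HC markers, 7 had higher values with CompE and none was called by edgeR (2 at an unadjusted p under 0.05, and Atoh1, the HC fate factor, by DESeq2). With the replicate block 2 were called higher, Atoh1 and Pou4f3, a transcription factor of HC differentiation. Fabp7, a fatty acid binding protein and marker of inner phalangeal and border cells, fell with CompE (log2 fold change -3.38, adjusted p by edgeR = 0.00138). The 2 further markers of these cells were not called and had higher values with CompE, and the median of the 3 was 0.056. Otic mesenchyme markers summed to 1236 to 1388 RPM with CompE and 960 to 1204 RPM with DMSO, without overlap, yet 9 of the 10 tested had lower values, and Lum alone averaged 1051 RPM with CompE and 754 RPM with DMSO. Without Lum and Dcn the remaining 9 summed to 44.8 to 197 RPM with CompE and 45.6 to 336 RPM with DMSO, which overlapped. Col3a1 and Col1a2, fibrillar collagen genes of mesenchyme, had log2 fold changes of -0.75 and -0.72 (adjusted p = 0.806 and 0.761). Chondrocyte markers summed to 1.04 to 2.89 RPM with CompE and 1.17 to 4.64 RPM with DMSO, most of it Chad, and Col10a1, Ucma, Comp and Ihh had at most 0.347 RPM each in any P0 library. Matn1 had 21.7 to 50.5 RPM with CompE, and the part of chondrocytes in its level was not tested. Glia, neuron, immune and red blood cell markers had no called gene at P0, with summed levels of respectively 312 to 451, 30.7 to 67.8, 1.73 to 14.4 and 0.221 to 7.15 RPM over the P0 libraries.

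The wider set of matrix genes held 75 gene symbols in 10 lists. At P0, 59 were tested and 5 were called, namely Matn1, Adamts15, Has2, Ust and Chst15. The median log2 fold change of the 59 was -0.12, beside 0.0069 over all genes tested, and 17 had an unadjusted p under 0.05. Over all genes tested, 1.22% were called and 13.4% had an unadjusted p under 0.05. At P6, 61 were tested, 0 were called by edgeR or DESeq2, 0 had an unadjusted p under 0.05, and the median was -0.11 beside 0.00072 over all genes. None of these genes was called by edgeR for a difference in response between ages, where Matn1, Adamts15, Timp3, Col9a3 and Ust had an unadjusted p under 0.05, and DESeq2 called 1, Ust.

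Has2, Ust and Chst15 fell and Adamts15 rose at P0. Has2, which synthesizes hyaluronan, had 1.51 ± 0.940 RPM with CompE and 14.7 ± 8.22 RPM with DMSO (SD, n = 4). Its log2 fold change was -3.37 (SE 0.554, adjusted p by edgeR = 0.00853). It was the 1 gene called of 6 tested for hyaluronan synthesis, breakdown and binding, whose median was -0.14. At P6, Has2 had 0 counts in the 3 CompE libraries. It was also low with DMSO there, at 0.951 ± 1.20 RPM (SD, n = 3) with a lowest value of 0. Ust and Chst15 transfer sulfate to chondroitin or dermatan sulfate chains. Ust had 37.1 ± 8.32 and 133 ± 42.7 RPM (log2 fold change -1.88, adjusted p = 0.00464), and Chst15 had 53.4 ± 10.6 and 163 ± 48.0 RPM (-1.65, adjusted p = 0.00473). They were the 2 called of 20 tested in chondroitin sulfate synthesis, with a median of -0.20 and 13 of 20 values lower. Adamts15, a secreted protease able to cleave aggrecan and versican, had 249 ± 58.3 RPM with CompE and 34.8 ± 21.4 RPM with DMSO (log2 fold change 2.78, SE 0.444, adjusted p by edgeR = 0.00758). It was the 1 called of 6 aggrecanase and inhibitor genes, whose median was -0.15. The 4 calls were each lost without 9 to 11 of the 12 single libraries or pairs left out, and those of Has2, Adamts15 and Chst15 also in the fit of all 14 libraries. None changed sign.

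**Figure D5:**
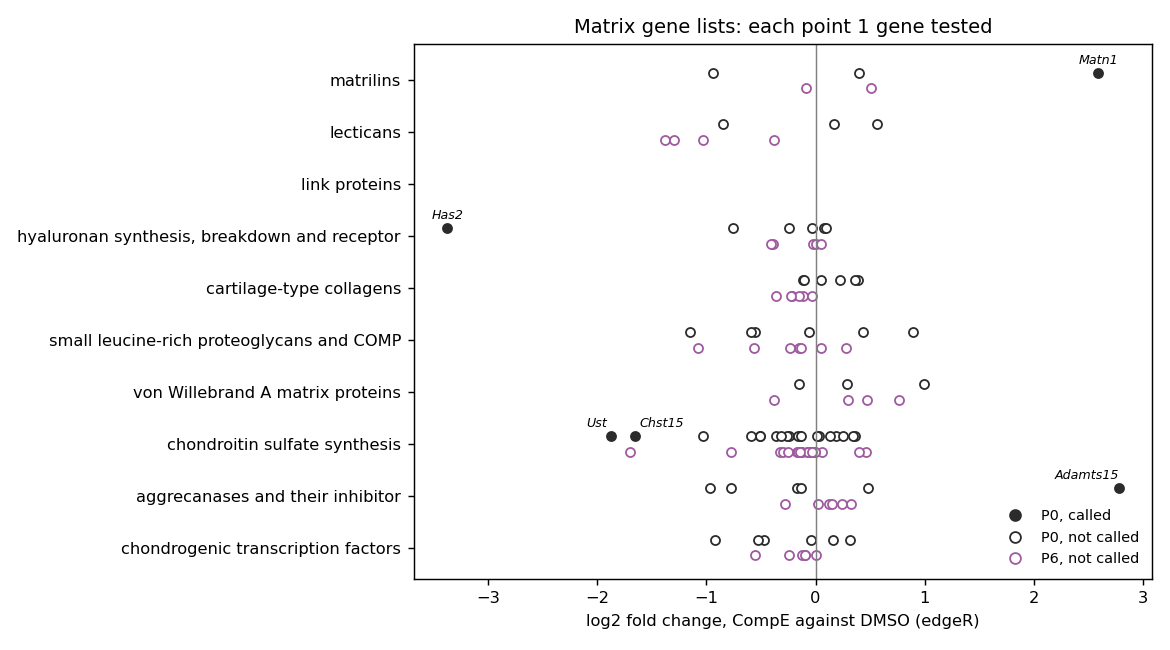
Log2 fold change by edgeR, CompE against DMSO (horizontal axis) for each tested gene of the 10 matrix lists (vertical axis). Black points are P0, purple points P6 and filled points called genes. Matn1 (2.59) and Adamts15 (2.78) lie at the right, Has2 (-3.37), Ust (-1.88) and Chst15 (-1.65) at the left, and no P6 point is filled.

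No gene of the remaining lists was called at P0 by edgeR or DESeq2. The 6 cartilage-type collagens had a median of 0.14 with 1 gene at an unadjusted p under 0.05. That gene, Col9a3, a chain of the fibril-bound collagen IX, had 846 ± 53.7 and 624 ± 70.1 RPM (log2 fold change 0.39, adjusted p = 0.158), and Col11a1, a fibril-nucleating collagen chain, had a log2 fold change of 0.36 (adjusted p = 0.747). Of the 6 chondrogenic transcription factors tested, 2 had an unadjusted p under 0.05, Sox6 (log2 fold change -0.92, adjusted p = 0.0169) and Sox9 (-0.47, adjusted p = 0.351), which act together on cartilage matrix genes. The list's median was -0.26. The 6 small leucine-rich proteoglycan and COMP genes tested had a median of -0.31, with 1 gene at an unadjusted p under 0.05. Epyc and Lum code for such proteoglycans. Epyc had a log2 fold change of 0.89 (adjusted p = 0.612) and Lum of 0.44 (adjusted p = 0.109), and Lum is also one of the otic mesenchyme markers. The 3 von Willebrand A matrix genes tested had a median of 0.29, with 1 at an unadjusted p under 0.05, Vwa2, at a log2 fold change of 0.99 (adjusted p = 0.0358). The 3 lecticans tested, Vcan, Ncan and Bcan, had a median of 0.16 and none at an unadjusted p under 0.05, and no link protein gene was tested at either age. Notch targets are given as a check of the treatment. At P0 all 7 had lower values with CompE (median -2.70), and edgeR called 5 of them (7 by DESeq2 and with the replicate block). The calls were led by Nrarp (-3.11, adjusted p by edgeR = 0.000204), Hey1 (-1.65), Hes1 (-2.70) and Heyl (-3.36), all feedback or effector genes of the pathway. At P6 the 7 had a median of -1.61, 0 called by edgeR, 6 at an unadjusted p under 0.05 and 3 called by DESeq2.

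In DMSO, matrix genes other than the matrilins also changed with age. Adamts5, a main aggrecanase of cartilage, rose from 2.30 ± 0.918 to 14.7 ± 5.86 RPM (log2 fold change 2.73, adjusted p by edgeR = 0.000288). Tmem2, a cell-surface protein that degrades or helps degrade hyaluronan, fell from 561 ± 79.1 to 254 ± 27.8 RPM (-1.08, adjusted p = 0.000277). In chondroitin sulfate synthesis 5 of 21 genes were called, 1 higher and 4 lower, beside 7.12% of all genes. Chst15 (-3.56), Ust (-2.003) and Chsy1 (-1.77), the last a chain polymerase, fell, and the sulfate transporter gene Slc26a2 rose (1.09, adjusted p = 0.00586). Chst15 and Ust thus had lower values both with CompE at P0 and in DMSO at P6, comparisons that share the P0 DMSO libraries. Of the marker genes, Atoh1 fell (-2.97) and Rorb (1.01), a nuclear receptor gene of inner phalangeal cells, and Tubb3 (3.06), a neuronal tubulin, rose. Atoh1 was the 1 called of 8 HC markers, of which 2 had higher and 6 lower values at P6. Tubb3 was the 1 called of 5 neuron markers, 3 with higher and 2 with lower values. Rorb was the 1 called of 3 inner phalangeal and border cell markers, all with higher values. None of the 6 cartilage-type collagens was called by edgeR (4 at an unadjusted p under 0.05, beside 35.5% of all genes) or DESeq2, and their median was -0.49 beside -0.05 over all genes tested.

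The genes whose levels most resembled each matrilin over the 14 libraries are given as a description. Pearson's r of log2(RPM + 1) was computed against 9988 genes averaging 10 RPM or more, and the points share age, batch and depth. Matn1 was most like Bmp2, a ligand of the TGF-β family (r = 0.963), Hpcal1, a neuronal calcium sensor (r = 0.962), and Nfasc, a cell adhesion protein (r = 0.959). Bmp2 had 204 ± 59.2 RPM with CompE and 54.9 ± 14.1 RPM with DMSO at P0 (SD, n = 4), and 15.05 ± 4.47 and 14.1 ± 7.01 RPM at P6 (SD, n = 3), the same order of groups as Matn1. Matn4 was most like Rragd, a GTPase of amino acid sensing (r = 0.980), Marcks, an actin-binding substrate of protein kinase C (r = 0.979), and Gdpd2, a phosphodiesterase of glycerol lipids (r = 0.979). Rragd had 179 ± 4.42 and 260 ± 59.3 RPM with CompE and DMSO at P0, and 75.2 ± 25.4 and 64.7 ± 20.004 RPM at P6. Matn2 was most like Tnrc6c (r = 0.952), Eea1 (r = 0.942) and Zfp646 (r = 0.921), which act in silencing by small RNAs, in early endosomes and in DNA binding.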

How the data were processed

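RNA-seq of sorted Lfng-EGFP SCs was analysed in 14 libraries. Per the sources used here, the authors trimmed reads with Trim Galore and cutadapt (versions 0.6.0 and 1.15 per the labels), mapped them with STAR to GRCm38 (mm10) and deposited raw counts per gene symbol, neither normalized nor filtered. Which annotation was used, and whether strand was, are not given in the sources used here. Libraries came from amplified full-length cDNA without molecular identifiers, so intervals and floors cover counting error only. Totals of 19415066 to 44430063 counts leave little counting error above 10 RPM.

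RPM was each count over its library total. edgeR 4.0.16 in R 4.3.3 was run by quasi-likelihood (glmQLFit, glmQLFTest) after TMM and filterByExpr (minimum count 10), for each age alone and over the 14 libraries for the interaction and for age in DMSO. The authors used DESeq2, run here (1.42.0) as an alternative. A call needed a p, adjusted by Benjamini-Hochberg, no higher than 0.01 and a change of 2-fold or more. Fits were tested on simulated data. Other alternatives were DESeq2 size factors, no filter, an adjusted p of 0.05 with the fold threshold dropped, the replicate block, another scaling or pseudocount, and leaving out each library or pair. In the labels, same-numbered CompE and DMSO libraries of an age share a batch, and replicates 3 and 4 at P0 are both in batch 3. Deviations of same-numbered libraries correlated across genes at 0.231 to 0.801, so the numbers were treated as pairs, although P0 replicate 2 (0.231) did not correlate best with its own number. A batch block and swaps by batch were added after seeing the data. Gene positions came from GENCODE M21 (26772 of 35976 symbols matched) and promoters from RefSeq (32501 matched).

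The members and the 11 pathway and 9 marker lists were chosen with earlier results of these data known. Besides members, the text names up to 4 called genes per list, or where none was called the 2 largest changes at P0 with at least 10 RPM, and the 3 genes most like each matrilin. Chondrocyte markers, the lecticans other than Acan and genes at 0 were named outside this rule, after their values were seen.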

Additional observations from a re-analysis of the deposited data

Results flagged for a closer look

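Of the 10 groups of 4 libraries whose member values varied, 3 held a library set apart from the other 3 by the gap over the range. The usual chance rate of about 1 in 20 groups holds for continuous values and not for counts at or near 0, as in all 3. Acan in P0 DMSO replicate 4 had 1.12 RPM (34 counts) beside 0 to 4 counts in the other libraries of its group. Hapln1 had 0.0986 RPM (3 counts) in the same library and 0 counts in the others. Matn3 in P0 CompE replicate 2 had 0.309 RPM (6 counts) beside 0 or 1 count.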

How the results depend on the processing

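Matn1 at P0 kept its direction in all 19 alternatives and its call in 9. The call was lost without 6 single libraries and 3 pairs and in the fit of all 14 libraries (log2 fold change 2.58). Values were 2.39 to 2.93 without single libraries and 2.35 to 2.81 without pairs (2.47, 2.35 and 2.74 where the call was lost). Members called at P0 were 2 rather than 1 under an adjusted p of 0.05 without the fold threshold, where Matn4 (-0.94) joined Matn1, 0 in the fit of all 14 libraries, and 0 to 1 when libraries or pairs were left out. Genes called at P0 were 195, against 617 under these looser thresholds, 443 with DESeq2, 350 with the replicate block, 334 with batch as the block (chosen after seeing the data), 117 in the fit of all 14 libraries, 80 to 225 without single libraries and 1 to 206 without pairs, with 69, 44 and 1 left without the pair of replicate 2, 3 and 4. At P6, DESeq2 called 13 genes, and for the difference between ages there were 33 with DESeq2, 1 without a filter, 2 under the looser thresholds, 16 with the replicate block (0.0936% of genes tested) and 0 to 2 without single libraries. For age in DMSO, 1993 were called with DESeq2, 3840 under the looser thresholds and 804 to 1137 without single libraries, and Matn1 and Matn4 were called in all 11 alternatives.

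Pairing by replicate number changed no member's call, and batch as the block changed none at P0. It turned P6 log2 fold changes of Matn2 to 0.043 and of Matn4 to -0.0022. At P6, leaving out single libraries or pairs gave -0.44 to 0.39 for Matn2 (0.079 and 0.16 without the pair of replicate 2 and 3), -0.97 to 1.02 for Matn4 (-0.46 without the pair of replicate 1) and -3.36 to 2.18 for Acan. The difference between ages ran from -0.0033 to 1.96 for Matn4 and from -0.96 to 4.82 for Acan (-0.69 to 4.82 without single libraries), and age in DMSO from -0.79 to 0.022 for Matn2. RPM differences at P6 ran from -0.123 to 0.389 for Matn1, -1.92 to 1.36 for Matn2, -0.126 to 0.0364 for Matn3, -4.64 to 8.72 for Matn4 and -1.99 to 1.33 for Acan, those at P0 from -0.365 to 0.00767 for Acan, and age in DMSO from -0.00664 to 0.115 for Hapln1. Mean log2 ratios within pairs ran from -0.060 to 0.63 for Matn3 and from -0.23 to 0.34 for Hapln1. The cause was not tested, other than that fewer libraries entered. Of the 9 list genes named as called at P0, all 9 lost the call without some library or pair and 0 changed sign, and of the 16 for age in DMSO 8 lost it and 0 changed sign. Depth limits Matn3, Hapln1, P0 Acan and P6 Matn1.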
